A study of Sus scrofa with 6 samples.

Results

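Differentially methylated regions (DMRs) that lie in the last intron of a gene numbered 478 of the 15633 DMRs listed between psoas major muscle (PMM) and longissimus dorsi muscle (LDM) of the pig. A DMR was counted here when at least 1 of its gene element entries in the deposited list named a last intron, the intron that precedes the final exon of a transcript, and none named a promoter, an exon or a first intron. The choice used the annotation alone and no methylation value. DMRs of internal introns (3097) and of first introns (1273) served as the nearest comparison.

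The study asked how DNA methylation differs between an oxidative and a glycolytic skeletal muscle. PMM is a loin muscle rich in oxidative fibres and LDM a back muscle rich in glycolytic fibres, and both were taken from untreated female Landrace pigs aged 210 days whose feed had been withdrawn before slaughter. There were 6 libraries, 3 of PMM and 3 of LDM. Muscles were assigned from the sample titles, which carry the same muscle as the tissue tag, because the source name read longissimus dorsi for all 6 libraries. By the methods of the study the same 3 pigs gave both muscles, so the 6 libraries come from 3 animals. No label ties equal replicate numbers to 1 pig, so the muscles were compared without pairing, and the errors given here are those between libraries. The samples were whole muscle, so a difference in methylation within 1 cell type and a difference in the share of cell types cannot be told apart. The muscle labels were not checked against expressed markers, since the list used here holds values from DNA alone.

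DNA methylation in mammals sits mostly on cytosines of CpG dinucleotides and is laid down and copied by DNA methyltransferases. Bodies of transcribed genes are commonly methylated while CpG islands at promoters are commonly free of it, and methylation inside genes has been linked to elongation by RNA polymerase and to splicing. The last intron lies beside the terminal exon, where transcripts end and are polyadenylated, and intronic sequence can also hold enhancers. Methylated DNA immunoprecipitation sequencing (MeDIP-seq) pulls down sheared DNA with an antibody against methylated cytosine. Its read depth grows with the methylation of a CpG and also with the number of methylated CpGs on the same fragment.

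Each library had 1 deposited value for each DMR, a scaled mean read depth over its CpGs, called depth below. Differences are PMM minus LDM on the scale of log2(depth + 1), and a fold is the same difference taken out of the logarithm. A signed value given alone in parentheses after a gene's depths is its log2 difference. Coordinates are those of build Sscrofa10.2 as the list gives them, and the bounds of the introns were not used here. Library totals are not known from the list, so counting error could not be given for a single value. The list had been drawn up from a comparison of these same 6 libraries. A threshold passed or a lack of overlap between muscles therefore only describes how its entries were found, and the smallest p that an exact permutation test of 3 libraries against 3 could give is 0.1.

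With depths scaled as deposited, last introns held more gains than losses in PMM. Depth was higher in PMM in 282 of the 478 DMRs and lower in PMM in 196, that is 59.0% higher (95% Wilson interval 54.5 to 63.3%), against 55.3% of internal intron DMRs, 57.2% of first intron DMRs and 56.0% of all listed DMRs. The value of the whole list thus lay inside the interval, which covers counting error only. All 478 passed an adjusted p of 0.05 in limma, where 99.9% of all listed DMRs passed, and the largest adjusted p among the 478 was 0.0142. The balance depended on the scaling. Once a smooth trend of log2 depth on CpG density had been subtracted from each library, which sets a region against listed DMRs of like density, 124 passed as higher and 148 as lower, 45.6% were higher and the median log2 difference was -0.11, against 0.62 as deposited. As deposited, over the whole list 55.9% passed as higher and 44% as lower. In all 478 the 3 PMM libraries lay apart from the 3 LDM libraries, as they did in 100% of the list.

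Losses were larger than gains. The median loss was 2.66-fold and the median gain 1.79-fold, and the extremes were 7.09-fold lower and 3.22-fold higher in PMM. A loss of more than 2-fold was seen in 179 DMRs (36.7% of all listed DMRs lost as much), and a gain of more than 2-fold in 76 (17.1% of the list). More than 4-fold losses numbered 25 (4.96% of the list), while no last intron DMR gained more than 4-fold (0.23% of the list). The share of losses that exceeded 2-fold was 91.3% in last introns and 83.4% over the list, and the share of gains that did so was 27.0% in last introns and 30.6% over the list, shares whose differences were not tested. The median log2 difference was 0.62 in last introns and 0.56 over the list, and the mean in last introns was -0.08. The smallest difference was 1.27-fold. The standard error of a difference had a median of 0.14 among gains and 0.23 among losses.

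The regions themselves were short. Their median length was 137 bp, with a range of 21 to 1932 bp and a total of 78.6 kb, and they held 5 to 33 CpGs with a median of 6. Regions lower in PMM were shorter (median 92.5 bp) and denser in CpGs (8.05 CpGs per 100 bp) than regions higher in PMM (172 bp and 3.94 CpGs per 100 bp). For 412 of the 478 every element entry was a last intron, and 245 of these were higher in PMM. Another 52 also lay in an internal intron of a different transcript or gene, and 18 lay within 2 kb downstream of a gene. A gene symbol was given for 440 of them, which fell in 362 genes. On chromosome X 23 of 40 were higher in PMM (57.5%), and on the autosomes 259 of 438 (59.1%).

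Direction followed CpG density within last introns. The 15633 DMRs were divided into 4 classes of equal size by density, at 3.69, 5.38 and 7.78 CpGs per 100 bp. In the sparsest class 125 of 133 last intron DMRs were higher in PMM (94.0%, 95% Wilson interval 88.6 to 96.9%). In the second class 89 of 108 were higher (82.4%, 74.2 to 88.4%), and in the third class 48 of 110 (43.6%, 34.7 to 53.0%). In the densest class 20 of 127 were higher in PMM (15.7%, 10.4 to 23.1%). The 4 intervals did not overlap, but they cover counting error over regions only and not variation between libraries or animals. These shares are of depths scaled as deposited.

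**Figure D1:**
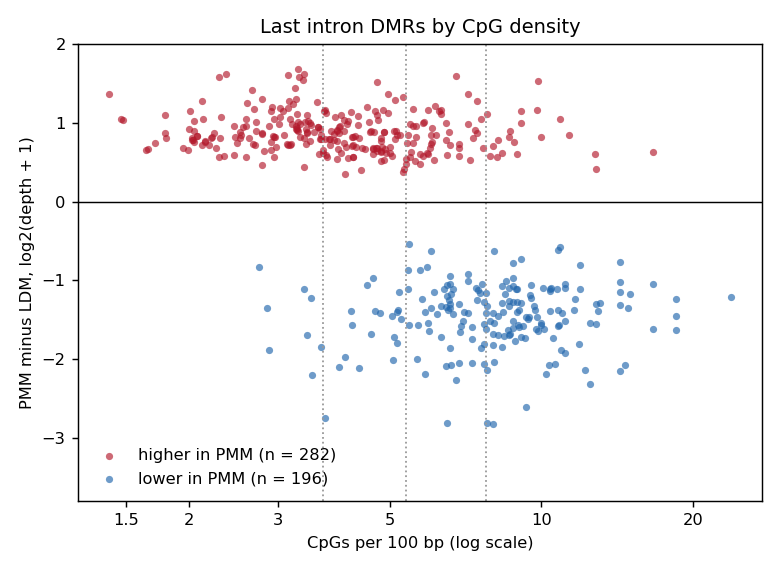
Log2 difference in depth (PMM minus LDM, y axis) of each last intron DMR against its CpGs per 100 bp (x axis, log scale), with 1 point for each of the 478 DMRs and dotted lines at the class bounds. Points at the sparse end lie mostly above 0 and points at the dense end mostly below it, and the losses reach farther from 0 than the gains.

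The same gradient ran through the whole list, where 93.9, 76.1, 37.1 and 16.7% of the DMRs in the successive classes were higher in PMM. Internal introns had 93.3, 72.1, 35.2 and 16.6%, and first introns 93.0, 76.6, 37.7 and 16.6%. Within the second class the share in last introns was 82.4%, and the value of the list, 76.1%, fell inside the interval of the last introns. Had each density class of the last introns held the share of the whole list, 56.3% of their DMRs would have been higher in PMM, against the 59.0% observed. That expected value also fell inside the interval of the observed share.

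**Figure D2:**
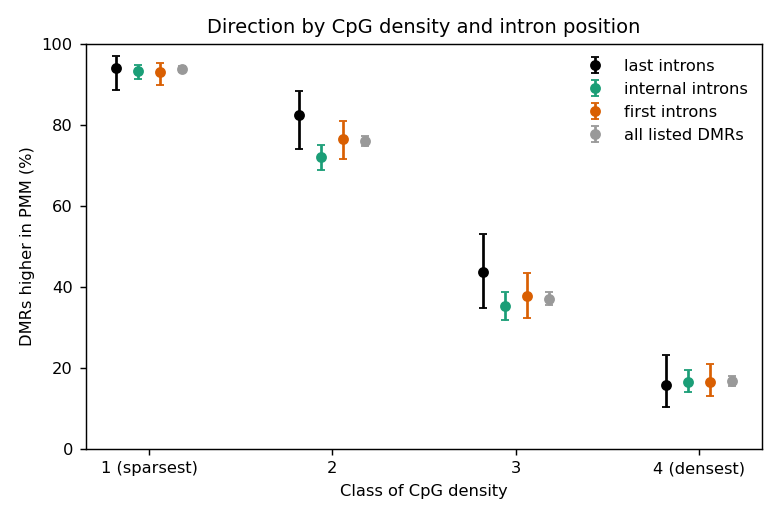
Share of DMRs higher in PMM (percent, y axis) by class of CpG density from sparsest to densest (x axis), for last introns, internal introns, first introns and all listed DMRs. Error bars are 95% Wilson intervals, which cover counting error only, and the shares of last introns decline from 94.0% to 15.7%.

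Depth in single libraries showed how the muscles parted. Over the 282 gains the median depth was 46.0, 49.2 and 49.8 in the PMM libraries and 27.5, 26.5 and 24.7 in the LDM libraries. Over the 196 losses it was 13.0, 9.09 and 9.98 in PMM and 30.2, 27.0 and 30.3 in LDM. The LDM medians of both sets lay between 24.7 and 30.3, and the PMM medians lay above that range for the gains and below it for the losses. The whole list was alike, with library medians that averaged 48.5 in PMM and 26.2 in LDM over gains, and 10.4 and 27.9 over losses.

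Over all 478 regions the library medians of the muscles overlapped, with 26.5 ± 1.42 in PMM and 27.5 ± 0.940 in LDM (SD, n = 3 each). By density class the medians in PMM were 40.4 ± 1.41, 49.6 ± 2.81, 19.0 ± 3.56 and 13.1 ± 2.53, from sparsest to densest. In LDM they were 22.0 ± 1.46, 32.5 ± 0.442, 31.6 ± 2.15 and 30.8 ± 1.91. Within PMM libraries depth fell with density across the 478 regions (Spearman correlation -0.361, -0.430 and -0.426), and within LDM libraries it went weakly the other way (0.216, 0.150 and 0.253). Over the whole list the correlations were -0.394, -0.440 and -0.435 in PMM and 0.139, 0.0913 and 0.168 in LDM. These correlations are over regions of 1 library each, which share that library and its scaling, and are given as descriptions.

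**Figure D3:**
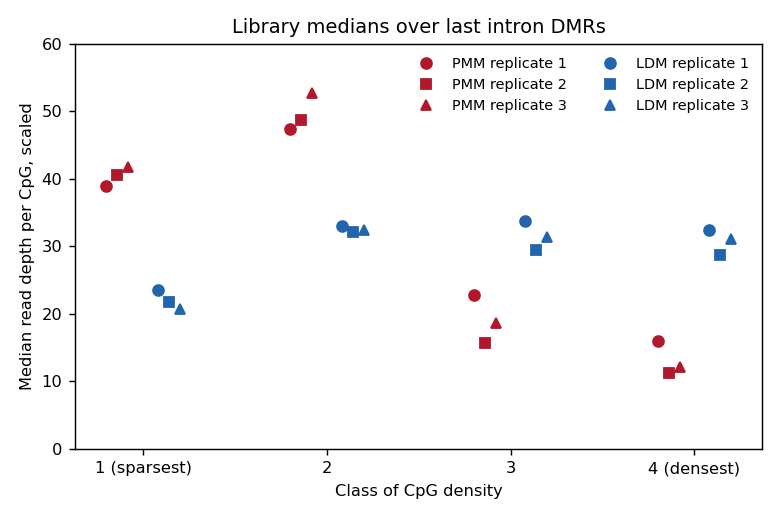
Median depth over last intron DMRs in each of the 6 libraries (y axis, scaled read depth) by class of CpG density (x axis), with PMM libraries to the left of LDM libraries and 1 symbol for each replicate. The PMM libraries lie above the LDM libraries in the 2 sparser classes and below them in the 2 denser classes.

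PMM replicate 1 stood apart from the other PMM libraries in the losses. It had the highest depth of the 3 PMM libraries in 129 of the 196 losses and the lowest in 22, while replicate 2 was lowest in 109 and replicate 3 in 65. The whole list showed the same pattern. Over its 6882 losses replicate 1 was highest in 4506 and lowest in 823, while replicate 2 was lowest in 3923 and replicate 3 in 2136. The ratio of SD to mean had a median of 0.299 in PMM and 0.124 in LDM over the losses, and of 0.0763 in PMM and 0.113 in LDM over the gains. Leaving out any 1 library removed the call of none of the 478.

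Mean depth over the 6 libraries and direction also went together. That mean includes the PMM values that set the direction, so the link is partly built in. The mean of the LDM library medians was 26.2 over the gains and 29.2 over the losses, against 48.3 and 10.7 in PMM. Of the 40 regions with a mean depth of 80 or more, all 40 were higher in PMM (98.4% in the whole list), and of the 105 between 40 and 80, 89 were higher (84.8%, and 84.8% in the list). Between 20 and 40, 99 of 180 were higher (55%, against 51.0% in the list). Of the 124 between 10 and 20, 43 were higher (34.7%, against 36.1%), and of the 29 under 10, 11 were higher (37.9%, against 252 of 1052 in the list).

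Some regions went against the density gradient, and they were picked out after their values were seen. Losses in the sparsest class numbered 8, from 1.78-fold to 4.62-fold, all at mean depths of 10.2 to 15.5. INSRR, an insulin receptor relative that senses alkaline pH, had 3.50 CpGs per 100 bp and depths of 7.51, 1.63 and 4.16 in PMM libraries, against 23.2, 19.1 and 22.4 in LDM libraries. CEP70, a centrosomal protein gene, had 7.03, 3.49 and 5.82 in PMM and 23.6, 19.7 and 23.1 in LDM (log2 difference -1.88). Others were in TSHZ2, TMEM63A, AFTPH and TOX2 and in a locus on chromosome 14 without a symbol.

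Gains in the densest class numbered 20, with log2 differences of 0.42 to 1.53 and a median of the mean depths of 40.1. EXOC4, which encodes a subunit of the exocyst that tethers secretory vesicles, was the largest at 9.84 CpGs per 100 bp. COQ9, needed for the synthesis of coenzyme Q of the respiratory chain, had 105, 104 and 113 in PMM libraries and 77, 67.2 and 65.3 in LDM libraries (0.62 on the log2 scale). ADRA1A, an alpha-1 adrenergic receptor, gained 1.04, and SCARB1, the receptor that takes up cholesterol from high-density lipoprotein, gained 0.99. CYSTM1 held 3 of the 20.

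The 8 largest gains at a mean depth of at least 10 were in C4orf22, PADI6, CHKA, NEK7, EXOC4, STK35, ELP4 and FRMD3. The region in C4orf22 (chr8:146632854-146633127, build Sscrofa10.2) had depths of 54.3, 75.5 and 80.6 in PMM, against 27.6, 17.6 and 18.5 in LDM. Its difference of 1.69 ± 0.20 on the log2 scale (3.22-fold, limma adjusted p = 0.000264) was the largest gain of all 478. PADI6, a peptidylarginine deiminase known from oocytes and early embryos, had 24.8, 30.1 and 22.3 in PMM and 6.14, 10.2 and 7.24 in LDM (1.61).

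CHKA encodes choline kinase alpha, which starts the synthesis of phosphatidylcholine. Its DMR (chr2:3471213-3471286) lay in a CpG island shore and had depths of 16.2, 15.4 and 15.0 in PMM and 2, 6.22 and 6.47 in LDM (1.60). NEK7, a mitotic kinase that also takes part in inflammasome activation, had 23.8, 29.1 and 28.9 in PMM and 10.0, 9.95 and 6.47 in LDM (1.54). Of the other kinase in this group, STK35, the depths were 33.6, 40.6 and 42.4 in PMM and 13.6, 16.5 and 11.7 in LDM (1.42). In both kinase genes the lowest PMM library stood above the highest LDM library, as it did in all gains of the list.

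EXOC4 (chr18:16825651-16825711) had 28.1, 40.1 and 37.2 in PMM and 11.8, 12.3 and 10.1 in LDM (1.53). ELP4, a subunit of the Elongator complex that modifies transfer RNAs, had 19.6, 18.8 and 21.8 in PMM and 6.20, 10.4 and 5.61 in LDM (1.37). With the density trend subtracted the difference in ELP4 was 0.32 and did not pass the threshold. FRMD3, a FERM domain protein of the cytoskeleton, had 46.5, 60.9 and 69.2 in PMM and 26.4, 23.4 and 17.0 in LDM (1.37). Mean depths of the 8 ran from 10.2 in CHKA to 45.7 in C4orf22.

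Among the 8 largest losses were UBAP1, CCDC93, RNASEH1, AKR1B1, INSRR, LRRC59 and TAF2, each more than 4-fold lower in PMM. UBAP1 is part of ESCRT-I, the complex that sorts ubiquitinated membrane proteins into endosomes. Its DMR (chr10:36702303-36702487) had depths of 2.52, 3.20 and 6.06 in PMM and 28.1, 28.2 and 42.1 in LDM, a difference of -2.82 ± 0.30 (7.05-fold lower, limma adjusted p = 0.000264). With a pseudocount of 4 in place of 1 the loss was 4.65-fold, and a second UBAP1 region was higher in PMM (0.47). CCDC93, a subunit of a complex that recycles receptors from endosomes, had 10.7, 3.30 and 1.73 in PMM and 34.8, 27.1 and 40.8 in LDM (-2.75). That loss was 6.74-fold, and it was 10.2-fold without PMM replicate 1 and 4.45-fold with a pseudocount of 4.

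RNASEH1 cleaves the RNA strand of RNA-DNA hybrids and is needed for the replication of mitochondrial DNA. Its DMR (chr3:140441633-140441707) had 26.1, 4.32 and 14.1 in PMM and 90.6, 61.6 and 85.4 in LDM (-2.61, 6.10-fold lower), with PMM replicate 2 far below the other PMM libraries. Without that library the loss was 3.91-fold. LRRC59, a leucine-rich repeat protein of the endoplasmic reticulum, had 1.65, 11.5 and 7.04 in PMM and 26.3, 31.2 and 28.1 in LDM (-2.20, 4.58-fold lower), and without PMM replicate 1 the loss was 2.94-fold. In both genes the PMM libraries lay below each LDM library, but the muscles lay apart in 100% of the list.

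AKR1B1, the aldose reductase that turns glucose into sorbitol, had 12.7, 5.96 and 3.25 in PMM and 39.6, 31.6 and 37.3 in LDM (-2.32). TAF2, a subunit of the general transcription factor TFIID, had 8.66, 6.15 and 11.9 in PMM and 42.5, 37.0 and 50.0 in LDM (-2.19). INSRR, whose values are given above, fell by 2.21. The most extreme loss of all, in the phosphatase-like gene PTPDC1 (-2.83), had a mean depth of 6.82, below the minimum set for this group, and its 7.09-fold became 12.0-fold and 3.32-fold with pseudocounts of 0.25 and 4.

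**Figure D4:**
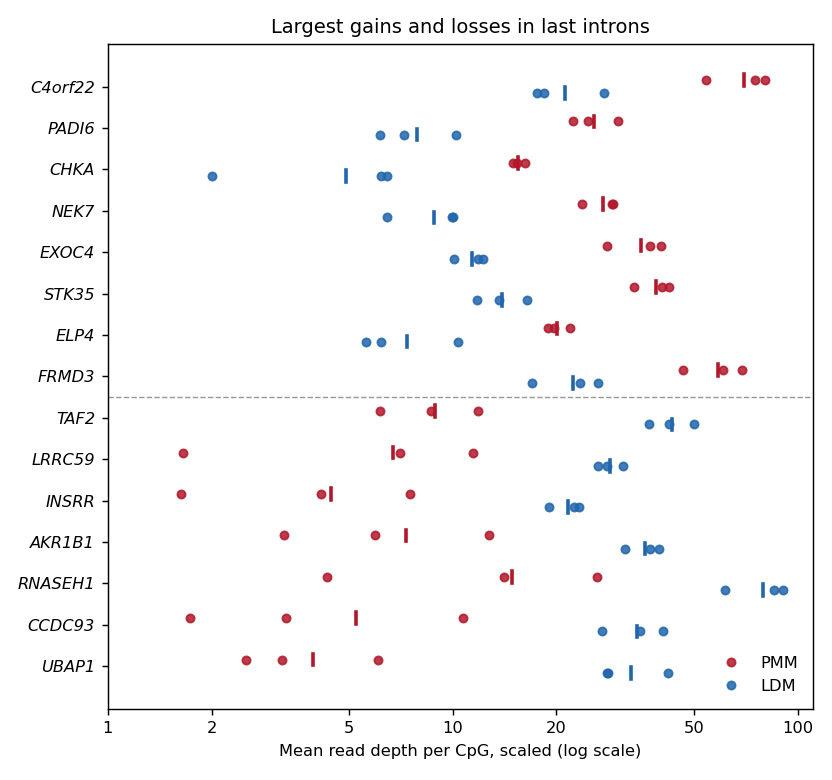
Depth (x axis, log scale) in the 3 PMM and 3 LDM libraries of the 8 last intron DMRs with the largest gains and 7 of those with the largest losses in PMM, 1 row for each DMR, 1 point for each library and a vertical bar at the mean of each muscle. Muscles do not overlap in any row, and the spread of the PMM points is widest among the losses.

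Genes with several regions in the last intron showed whether neighbouring regions moved together. There were 52 such genes with 130 regions, of which 19 genes had gains only, 8 had losses only and 25 had both. Of 78 pairs of neighbouring regions in a gene, 48 shared direction. Pairs on the same side of the median density shared direction in 33 of 42 cases, and pairs on opposite sides in 15 of 36. Of the 7 pairs at most 500 bp apart, 6 shared direction. Regions this close can be covered by the same sheared fragments, so such pairs are not separate observations. No share over the whole list was computed to set beside these pairs.

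Close pairs that moved together included those of TSHZ2, PROX1, RGS7, PGM1 and ENOX1. PROX1, a homeobox factor of lymphatic and liver development, had a pair 9 bp apart with differences of 0.93 and 0.71. PGM1, phosphoglucomutase of glycogen metabolism, had depths of 21.3, 16.3 and 21.8 in PMM and 9.80, 8.08 and 6.90 in LDM at the second of its regions (1.17), and the first, 392 bp away, differed by 0.68. The exception was TCF7L2, a Wnt effector of the TCF family. Its 2 regions lay 433 bp apart and differed by -2.06 at 7.69 CpGs per 100 bp and by 0.74 at 4.07 CpGs per 100 bp.

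PARK2 had the most regions. It encodes parkin, a ubiquitin ligase that marks damaged mitochondria for removal, and its 8 regions spread over 93.6 kb of the last intron of 1 transcript, 6 of them higher in PMM and 2 lower. The highest gain (chr1:7768149-7768413) had 53.9, 59.2 and 59.6 in PMM and 30.8, 31.9 and 24.1 in LDM (0.98). The larger loss (chr1:7721157-7721246) had 18.9, 21.1 and 13.8 in PMM and 32.5, 41.5 and 44.8 in LDM (-1.11). Both losses, this one and -0.78, were in regions of over 7.78 CpGs per 100 bp. One gain was as dense, a 39 bp region (chr1:7769928-7769966) that was among the 3 deepest of all 478, with 172, 160.3 and 178 in PMM and 131, 131 and 119.9 in LDM (0.42). That gain turned to -0.0796 under quantile normalization of the libraries. With the density trend subtracted the region at 7801756 turned to -0.22 and the loss at 7727623 to 0.074. The highest gain then fell to 0.088 and the larger loss to -0.24, neither past the threshold, while the dense gain at 7769928 rose to 1.31. In that fit 4 of the 8 regions passed. PARK2 also had 12 DMRs in other parts of its body, 10 of them higher in PMM.

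TSHZ2, a teashirt zinc finger transcription factor, had 6 regions over 133.4 kb, 4 higher and 2 lower in PMM. The sparse loss (chr17:61162476-61162679) had 7.96, 4.49 and 8.31 in PMM and 25.3, 21.8 and 25.3 in LDM (-1.70), and the other loss (-1.21) was in a region of 21 bp. The smallest change of all 478 was also in TSHZ2 (chr17:61070936-61071131), with 178, 173 and 171 in PMM and 131, 144 and 134 in LDM (0.35), one of the 3 deepest regions. Its sign turned under quantile normalization (-0.14) and with the density trend subtracted (-0.25).

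CYSTM1, which encodes a small cysteine-rich membrane protein, had 4 gains over 21.0 kb (0.90, 0.82, 0.82 and 0.58). The first was sparse in CpGs and the other 3 were in the densest class. A gene on the X chromosome that is known by a clone name only, starting at chrX:4846573-4846649, had 4 gains over 123.6 kb (1.11, 0.67, 1.10 and 0.66), the last of which was -0.078 with the density trend subtracted. Of the 12 genes with 3 regions, ELP4 and ENOX1 are given as the first by symbol. ELP4 had a dense loss (-1.35) followed by gains of 0.99 and 1.37 over 14.6 kb. With the density trend subtracted only the gain of 0.99 passed the threshold. ENOX1, a cell-surface NADH oxidase, had a loss (-1.85) followed by gains of 0.77 and 1.15 over 5.29 kb.

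**Figure D5:**
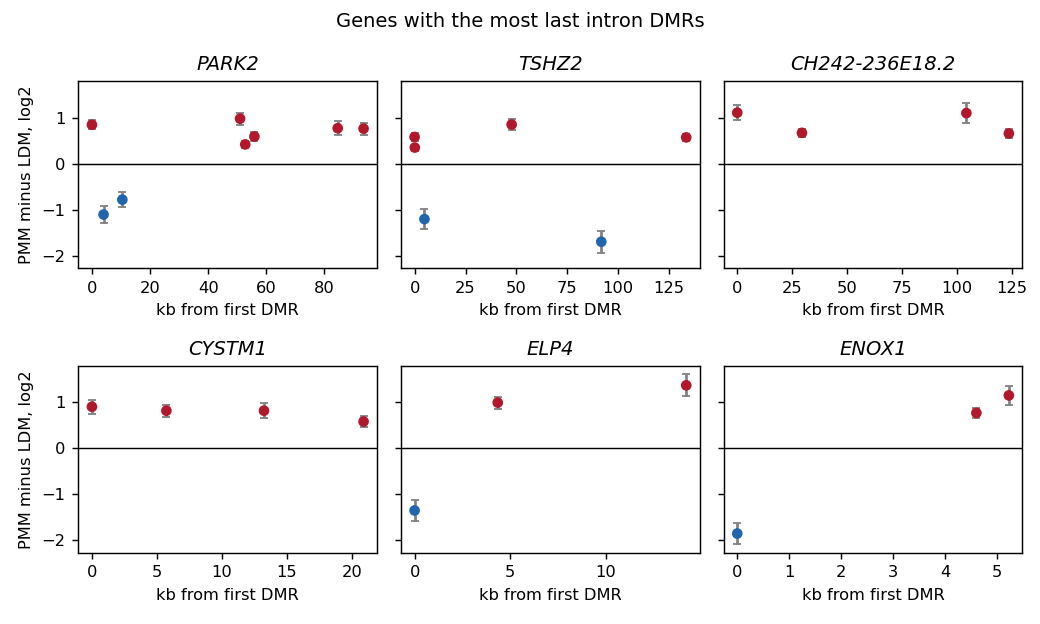
Log2 difference in depth (PMM minus LDM, y axis) of the last intron DMRs of the 6 genes with the most regions, placed by distance in kb from the gene's first region (x axis), with standard errors as bars. PARK2, TSHZ2, ELP4 and ENOX1 hold both gains and losses, and CYSTM1 and the clone-named X-linked gene hold 4 gains each, 1 of them in the X-linked gene turning negative once the density trend is subtracted.

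Gene groups are given next by their counts. They were drawn by symbol from lists of gene families that do not hold every gene of a function, so the counts are of the listed genes alone, and every region in them passed the threshold, as nearly the whole list did. Transcription factors and cofactors were the largest group, with 36 regions in 27 genes, 23 higher and 13 lower in PMM (median log2 difference 0.59, against 0.62 over all last intron DMRs). With the density trend subtracted 16 of the 36 were higher and the median was -0.11. SMAD6, an inhibitor of BMP signalling, had 32.9, 47.4 and 44.0 in PMM and 19.9, 19.6 and 12.0 in LDM at the larger of its gains (1.24). BACH2, a repressor of lymphocyte differentiation, had 24.2, 29.1 and 32.1 in PMM and 14.3, 12.3 and 11.1 in LDM (1.12). Losses were largest in TCF7L2, with 21.1, 8.14 and 12.5 in PMM and 63.8, 47.1 and 62.3 in LDM, and in the zinc finger gene BNC2 (-1.82).

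The listed mitochondrial, glycolytic and fatty acid genes had 20 regions in 11 genes, 9 higher and 11 lower in PMM with a median of -0.80. Without the 8 regions of PARK2 there were 3 higher and 9 lower, with a median of -1.38. The balance turned on membership. With PGM1 and COQ9, whose 3 gains are given above and which were not on the list, 12 regions were higher and 11 lower and the median was 0.42. The 4 genes of mitochondrial ribosomal proteins were all lower. MRPS14 had 35.7, 8.72 and 14.9 in PMM and 65.8, 63.4 and 61.3 in LDM (-1.85), and MRPL11, MRPL3 and MRPL13 differed by -1.57, -1.42 and -1.41. NDUFV2, a core subunit of respiratory complex I, was lower as well (-1.29). PPP1R3F, which directs protein phosphatase 1 to glycogen, had 3.46, 4.98 and 2.97 in PMM and 18, 12.6 and 16.5 in LDM (-1.80).

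The gains of that group outside PARK2 included 1 of the 2 regions of the fatty acid elongase ELOVL6 and 1 of the 2 regions of HSD17B3, a steroid dehydrogenase. Median density in the group was 7.46 CpGs per 100 bp, against 5.35 over all last intron DMRs. With the density trend subtracted, 8 of the 20 were higher and the median was -0.22. With CPT2 and MPC2 counted as well as PGM1 and COQ9, 12 regions were higher and 13 lower and the median was -0.78. Losses off the list, chosen after their values were seen, included CPT2 of mitochondrial fatty acid import and MPC2 of the mitochondrial pyruvate carrier. CPT2 had 12.9, 7.12 and 11.0 in PMM and 21.5, 27.6 and 25.8 in LDM (-1.22). MPC2 had 24.5, 17.2 and 22.6 in PMM and 55.1, 42.0 and 52.1 in LDM (-1.18). Other mitochondrial genes off the list went both ways and were not counted. Among these, ACSF3 (-2.07), PPA2 (-1.74) and MIPEP (-1.59 and -1.57) were lower, and TAMM41 (0.80) and LYRM7 (0.74 and 0.42) were higher.

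The listed cytoskeleton and calcium genes had 11 regions in 9 genes, 10 higher and 1 lower in PMM (median 0.81). With the density trend subtracted 8 of the 11 were higher. No gene of a sarcomeric myosin, actin or titin was among the 9. MYLK4, of the myosin light chain kinase family, held the deepest last intron DMR (chr7:1677634-1677681), with 190.2, 237 and 213 in PMM and 128, 143 and 139 in LDM (0.63). CDK5RAP2, a centrosomal protein gene, gained 1.18, and ATP2B4, a plasma membrane calcium pump, gained 0.95 with 30.0, 33.3 and 33.3 in PMM and 18.6, 13.9 and 16.4 in LDM. The loss was in the alpha-tubulin gene TUBA1A (-1.11), whose other region was higher in PMM (0.71). Cytoskeleton and centrosome genes off the list, chosen after their values were seen, went both ways and were not counted. Losses included CEP70 (-1.88), TBCD (-1.69), TACC2 (-1.65) and HAUS7 (-1.65), and gains included COBL (1.03), CEP350 (0.78) and DCX (0.72).

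Regulators of small and heterotrimeric G proteins had 8 regions in 7 genes, 7 higher and 1 lower (median 0.76), of which 5 were higher with the density trend subtracted. DENND1B, an exchange factor for Rab proteins, had 13.1, 14.0 and 13.1 in PMM and 3.60, 4.77 and 6.04 in LDM (1.33), and SRGAP1, a GTPase activator of Slit and Robo signalling, gained 1.18. RGS17 was the loss (-1.18). Transporters had 6 gains and 1 loss in 7 genes (median 0.76), with the phospholipid flippase gene ATP8B3 highest (1.14). The loss was in a further flippase gene, ATP9A, with 14.0, 2.33 and 7.72 in PMM and 36.9, 27.2 and 31.7 in LDM (4.31-fold lower, and 2.86-fold without PMM replicate 2).

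TGF beta, BMP, Wnt and Hedgehog genes had 15 regions in 9 genes, 10 higher and 5 lower (median 0.62), but 6 higher and a median of -0.08 with the density trend subtracted. TGFB3, a ligand of the TGF beta receptors, had 17.0, 16.7 and 20.1 in PMM and 9.83, 6.22 and 8.63 in LDM (1.05). PORCN, the acyltransferase that Wnt ligands need for secretion, was lower at both of its regions (-1.55 and -1.42). The listed kinases and phosphatases had 7 gains and 7 losses in 11 genes. NEK7 and STK35 were among the gains. Kinase genes off the list, chosen after their values were seen, went both ways. Gains included MAK (1.44), NUAK2 (1.30) and PLK5 (1.03), and losses included BMX (-1.39) and INSRR (-2.21).

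The list of insulin, mTOR and autophagy genes had 2 gains and 3 losses in 5 genes. The gains, in the autophagy gene ATG14 (0.69) and the phosphoinositide phosphatase gene INPP4B (0.95), became -0.33 and -0.0068 with the density trend subtracted. The losses included ATG7 (-1.24) and DPP8 (-1.57), a peptidase gene outside these functions that the list took in by its symbol. The list of ubiquitin ligases and deubiquitinases had 10 gains and 6 losses in 8 genes, 6 of the gains being PARK2, and a median of 0.52 that was 0.08 with the density trend subtracted. It took in UBAP1, which is neither, and without it there were 9 gains and 5 losses with a median of 0.58. RNF150 gained 1.09, and TRIM26 differed by -1.57. Ion channels had 4 gains and 4 losses in 8 genes, from KCNK13, a potassium channel of the leak type (1.15), to BEST2, a chloride channel of the bestrophin family (-1.92). SCN8A, a neuronal sodium channel, gained 0.75, and KCNC4, a voltage-gated potassium channel, differed by -1.47.

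Matrix genes had 1 gain and 4 losses in 4 genes, at a median density of 10.4 CpGs per 100 bp. XYLT1, which starts the sugar chains of proteoglycans, had 27.5, 16.2 and 11.1 in PMM and 50, 48.5 and 60.3 in LDM (-1.57), and CHSY1, which builds chondroitin sulphate chains, differed by -1.62. The gain was in GPC3, a cell-surface proteoglycan gene (0.69). Axon and synapse genes had 3 gains and 4 losses in 7 genes, with SDK1 (-2.02) and SYT17 (-1.72) lowest and CNTNAP5 (1.16) and LRP4 highest. LRP4 is the agrin receptor of the neuromuscular junction, and its region had 88.3, 96.5 and 84.7 in PMM and 54, 42.5 and 38.3 in LDM.

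Genes on the lists for cell types other than muscle fibres moved in both directions. A gene on such a list need not be specific to that cell type. The listed vessel and endothelial genes had 3 gains and 1 loss, in EDN3 (1.15), FGF5 (0.91), FGF9 (0.68) and NRP1 (-1.30), where NRP1 was the loss. The leukocyte list had 2 gains, BACH2 and IL4 (0.83, but -0.17 with the density trend subtracted). It had 4 losses, among them TNFRSF19 (-1.54) and CXCL17 (-1.39), genes that are not confined to leukocytes. Of these 6 regions, 3 were higher with the density trend subtracted. Off these lists and chosen after their values were seen, STAB2 of sinusoidal endothelium (0.89) and the lymphatic factor PROX1 gained, as did the leukocyte genes LAT2 (1.58) and ALOX5AP (0.57), while SH2D1A (-1.56) and NCF4 (-0.98) were lower. Their part in the differences between the muscles was not tested. No gene on the list of chromatin and histone modifiers had a last intron DMR, though RCOR1 of the CoREST complex, which was not on it, was higher in PMM. A gene may stand in several groups, as PARK2, SMAD6, TCF7L2, LRP4, NRP1 and BACH2 do.

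CpG islands held 5 last intron DMRs, all lower in PMM and among them FAM53B, BEST2, GEMIN8 and TBCD, and island shores held 34, of which 16 were higher and 18 lower. Outside both, 266 of 439 were higher. FAM53B, a gene of Wnt signalling in fish, had a loss in an island of -2.15, with 1.70, 0.233 and 5.20 in PMM and 12.4, 9.95 and 11.2 in LDM (4.43-fold lower, 6.66-fold without PMM replicate 3 and 2.50-fold with a pseudocount of 4). Large losses in island shores were in NADSYN1, an enzyme of NAD synthesis (-2.05), and in SDK1, a synaptic adhesion protein gene.

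The 3 regions with the most CpGs were all gains. FKBP6, a testis-specific immunophilin, had 33 CpGs over 1932 bp, with 21.7, 26.0 and 24.4 in PMM and 14.9, 12.1 and 14.9 in LDM (0.74). SMAD6 had 30 CpGs in a second region (0.40), and CRB1, a cell polarity gene, had 27 (0.67). All 3 gains turned negative with the density trend subtracted (-0.29, -0.077 and -0.31). Of the 84 regions with 10 or more CpGs, 35 were higher in PMM, against 99 of the 161 with 5 CpGs. Among the 38 regions without a symbol 26 were higher, and the largest gain (chr15:122542854-122543064, 1.62) and the largest loss (chr3:38825139-38825211, -2.05) of these came next to a gain of 1.37 on chromosome 18 and a loss of -1.52 on chromosome 7.

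Some genes with a last intron DMR had others in their body. Of the 362 genes, 151 also held 374 DMRs outside last introns, 264 of them higher in PMM (70.6%, against 56.1% of such DMRs in other genes). Their median density was 4.55 CpGs per 100 bp, against 5.24 in other genes, and with the density trend subtracted 54.5% were higher, against 44.2% in other genes, a difference that was not tested. Further genes of muscle or metabolism, chosen after their values were seen, included SSPN, the sarcospan of the dystrophin complex, with 24.8, 32.2 and 27.9 in PMM and 13.3, 14.2 and 12.0 in LDM (1.04). NOS1, the neuronal nitric oxide synthase found at the sarcolemma, had 94.1, 99.4 and 105 in PMM and 60, 50.8 and 51.0 in LDM (0.87). PER2, a repressor of the circadian clock, had 8.21, 3.75 and 4.85 in PMM and 18.2, 15.7 and 16.8 in LDM (-1.49), and DLK1, an imprinted inhibitor of adipocyte differentiation, differed by -1.30. PPARG, the nuclear receptor that drives adipocyte differentiation, gained 0.68.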

How the data were processed

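Reads of low quality were filtered by the authors, who aligned the others with SOAP2 to Sscrofa10.2 (the build in the submitters' processing notes) allowing mismatches, kept duplicated and multiply mapped reads once and dropped shallow CpGs. CpGs that differed between the muscles were joined into DMRs of at least 5 CpGs. The deposited values are a coverage signal, the mean read depth per CpG of a DMR, which the authors multiplied by 1 factor per library. The deposited list also holds the authors' p and FDR values and muscle means, which were not used. Since the depth was scaled, log2(depth + 1) was fitted for all 15633 DMRs in limma 3.58.1 (R 4.3.3, lmFit and eBayes with trend, muscle as the only term), with Benjamini-Hochberg adjustment and a threshold of 0.05. The code was tested on simulated data. Summaries used Python 3.11.15 with pandas 2.3.3. Gene symbols are those of the last intron entries, human symbol first, and 1 symbol turned into a date was left out. Because MeDIP depth depends on CpG density, a trend of log2 depth on density (loess, span 0.3) was also subtracted per library.

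Genes were named by a rule. With a symbol, the threshold passed, no overlap and a mean depth of at least 10, the 8 largest gains and 8 largest losses were named. Added were the 3 deepest DMRs, the 3 with most CpGs, the 4 largest differences in islands or shores, the 6 genes with most DMRs, the 2 largest gains and losses of each of 15 gene lists, and the 2 largest in each direction without a symbol. The members and gene lists were chosen with earlier results of these data known. Some regions that the rule names are not reported here.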

Additional observations from a re-analysis of the deposited data

How the results depend on the processing

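Pseudocounts of 0.25 and 4, a minimum mean depth of 10, a fit without the variance trend, each library left out in turn and last intron entries alone left the counts, shares and medians of the last intron DMRs at or near their values, and the call and direction of every named region that was tested. Quantile normalization moved the median log2 difference of all listed DMRs by -0.46 and that of the last introns to 0.20. It ended the call of 7 of the 93 named regions and reversed 2, in PARK2 (-0.0796) and TSHZ2 (-0.14). Subtracting the density trend moved the median of all DMRs by -0.65, and 124 last intron DMRs then passed as higher and 148 as lower, 45.6% were higher, 45.9% in the sparsest class, and the median log2 difference was -0.11. The 478 lost 206 calls under it. It reversed 10 named regions, among them those in ATG14 (-0.33), the clone-named X-linked gene (-0.078), CRB1 (-0.31), FKBP6 (-0.29) and IL4 (-0.17). The others reversed were in INPP4B (-0.0068), PARK2 (0.074 and -0.22), SMAD6 (-0.077) and TSHZ2 (-0.25). A further 17 kept their direction but lost their call. Gains among these were in PARK2 (0.088), ELP4 (0.32), SMAD6 (0.39), TGFB3 (0.15), SRGAP1 (0.32), KCNK13 (0.42), ATP2B4 (0.30), ENOX1 (0.12) and CYSTM1 (0.25). Losses were in PARK2 (-0.24), ELP4 (-0.47), RGS17 (-0.30), KCNC4 (-0.59), TUBA1A (-0.25), TNFRSF19 (-0.66), CXCL17 (-0.51) and TSHZ2 (-0.38). Over the whole list 15618 DMRs passed, against 13141 after quantile normalization and 8934 with the trend subtracted. What in the libraries makes the trend was not tested. With the replicate number as a block, 282 last intron DMRs passed as higher and 196 as lower, as without it. Deviations of libraries with equal numbers correlated at 0.04, 0.24 and 0.02, so the numbers were not taken as pairs. Folds of losses with PMM depths near 1 depend on the pseudocount, and 3 libraries a muscle limit every error.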
